A study of Mus musculus with 12 samples.

Results

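The lysosome genes described here are 33 named genes of lysosomal enzymes, membrane proteins, the proton pump and the transcription factor Tfeb. They were taken by symbol from a given list, each with its brightest probe set (the array's group of probes for 1 transcript), and all 33 were found among the 19938 mouse genes measured, each with 1 probe set. Transcripts were measured on Affymetrix Mouse Gene 1.0 ST arrays in peritoneal macrophages that had been drawn into the abdominal cavity of C57BL/6 mice by an injection of thyoglycollate, as the labels spell it, and washed out with saline. The macrophage donors were fed a high-fat diet (HFD) or control chow (CD) for 12 weeks from 6 weeks of age. Their macrophages, called high-fat and chow macrophages here, were given red blood cells (RBC) of high-fat-fed mice, RBC of chow-fed mice or no RBC, in a test of erythrophagocytosis, the engulfment of red cells. This makes 6 groups of 2 arrays: high-fat macrophages with high-fat RBC, with chow RBC and with no RBC, and chow macrophages with the same 3 exposures. Both replicates of a group carry animal replicate numbers, but the labels do not say whether cultures of the same number came from 1 mouse or whether animals were pooled, so the spread between replicates may be partly technical.

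Lysosomes break down what a cell engulfs. The vacuolar ATPase pumps protons into them, acid hydrolases then cut proteins, sugar chains and lipids, and membrane proteins hold the compartment together, carry enzymes in and let the products out. Tfeb, when it moves to the nucleus, switches on many lysosome genes through a short promoter element whose core is CACGTG. Macrophages that digest red cells or take up lipid from fatty tissue depend on this machinery.

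Values are log2 signals as deposited by the authors, so a difference of 1 is a doubling, and levels are compared only within a gene because each gene has its own probes. A gene is named as called where its Benjamini-Hochberg adjusted p from limma, over all genes tested, was below 0.05. The arrays had medians of 4.84 to 4.96 and no detection calls, so how far a signal lay above background is unknown. The 10 macrophage markers listed (Lyz2, Cd68, Itgam and Csf1r among the brightest) had a summed log2 signal of 13.71 to 14.01 over the arrays. The lysosome genes tended to differ together between replicates. Replicate 1 lay below replicate 2 in 31 of the 33 in unexposed high-fat macrophages, with a median difference of -0.18, and in 29 of the 33 in high-fat macrophages with high-fat RBC, with -0.07. It lay above in 28 of the 33 in chow macrophages with high-fat RBC, with 0.04. The unexposed high-fat pair was thus the widest apart, and over all genes 54.4% were higher on its replicate 1. How the counts of called lysosome genes changed when arrays of this pair were left out is given below. The cell markers and the other pathway genes are given from all arrays only, so their dependence on this pair is not shown.

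The promoters of these genes were searched for the core element, since Tfeb is one of them. RefSeq promoter sequences (build GRCm38.p6), taken as the 250 bases before the transcription start, were found for 27 of the 33 genes and not for Asah1, Atp6v0d2, Atp6v1h, Ctsb, Ctsh and Galns. CACGTG, which reads the same on both strands, was in the window of 11 of the 27 (40.7%), against 6.86% of all 27025 genes with a window. The 11 were Atp6v1a, Cln3, Ctsa, Ctsd, Ctsl, Gaa, Gla, Glb1, Lamp1, Mcoln1 and Naglu. The longer TCACGTGA, which contains CACGTG, was in 6 of the 27 (22.2%), against 0.907% of all genes. A match is a run of letters and was not tested for binding. The first 4 windows printed here are those of the genes called in at least 1 comparison that held the element, which stands in capitals (CACGTG, or TCACGTGA where the longer form is present). They are Mcoln1 (chr8:3500269-3500518, plus strand), Glb1 (chr9:114400828-114401077, plus strand), Gaa (chr11:119267713-119267962, plus strand) and Naglu (chr11:101069844-101070093, plus strand). The last pair, Scarb2 (chr5:92505658-92505907, minus strand) and Gusb (chr5:130003050-130003299, minus strand), are shown for contrast, as genes called in at least 1 comparison whose windows do not hold these letters.
Mcoln1: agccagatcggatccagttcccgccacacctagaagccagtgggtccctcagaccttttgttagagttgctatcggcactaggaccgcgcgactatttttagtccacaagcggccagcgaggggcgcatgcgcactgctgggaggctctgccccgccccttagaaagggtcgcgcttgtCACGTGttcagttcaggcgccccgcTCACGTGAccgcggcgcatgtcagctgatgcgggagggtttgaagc
Glb1: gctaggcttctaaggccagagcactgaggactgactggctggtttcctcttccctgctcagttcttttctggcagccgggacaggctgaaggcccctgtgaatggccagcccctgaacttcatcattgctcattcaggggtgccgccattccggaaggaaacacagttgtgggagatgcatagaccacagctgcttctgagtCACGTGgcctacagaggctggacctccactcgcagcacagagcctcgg
Gaa: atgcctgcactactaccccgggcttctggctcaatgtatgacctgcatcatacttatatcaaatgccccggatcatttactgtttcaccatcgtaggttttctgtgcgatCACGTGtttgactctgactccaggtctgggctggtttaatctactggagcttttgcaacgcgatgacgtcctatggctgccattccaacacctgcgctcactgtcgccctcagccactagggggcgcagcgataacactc
Naglu: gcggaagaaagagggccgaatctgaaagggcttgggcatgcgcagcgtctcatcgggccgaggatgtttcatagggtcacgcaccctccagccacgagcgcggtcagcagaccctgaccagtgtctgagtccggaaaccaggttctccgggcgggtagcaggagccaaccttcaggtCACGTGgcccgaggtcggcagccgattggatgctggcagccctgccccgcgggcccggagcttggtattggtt
Scarb2: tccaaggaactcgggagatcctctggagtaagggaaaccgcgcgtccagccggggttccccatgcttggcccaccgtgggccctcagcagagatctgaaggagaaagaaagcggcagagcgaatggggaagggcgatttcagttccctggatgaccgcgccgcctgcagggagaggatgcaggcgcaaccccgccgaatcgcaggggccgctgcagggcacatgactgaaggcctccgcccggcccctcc
Gusb: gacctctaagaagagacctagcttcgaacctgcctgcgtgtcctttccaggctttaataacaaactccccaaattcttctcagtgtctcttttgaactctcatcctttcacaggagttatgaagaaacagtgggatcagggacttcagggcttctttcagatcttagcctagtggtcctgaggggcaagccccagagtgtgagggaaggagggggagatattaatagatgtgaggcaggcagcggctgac

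In these windows the first base of CACGTG lay at -71 and -45 from the start of Mcoln1, at -48 of Glb1, at -140 of Gaa and at -73 of Naglu. The element was not limited to genes that differed between groups. Of the 11 genes called in any comparison, 8 had a window and 4 of these held it, and of the 22 called in none, 19 had a window and 7 held it.

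Most of the lysosome genes varied little over the study. The distance between a gene's highest and lowest group mean had a median of 0.25 over the 33 and ran from 0.08 for Ctsz, a cysteine carboxypeptidase, to 0.73 for Galns, which removes sulfate from keratan sulfate. The 4 widest were Galns, Naglu, Scarb2 and Gaa. Unexposed chow macrophages had the lowest mean of the 6 groups for 22 genes, unexposed high-fat macrophages for 6 and chow macrophages with chow RBC for 5. High-fat macrophages with high-fat RBC had the highest mean for 16 genes. How often each group was lowest or highest over all genes was not counted.

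**Figure D1:**
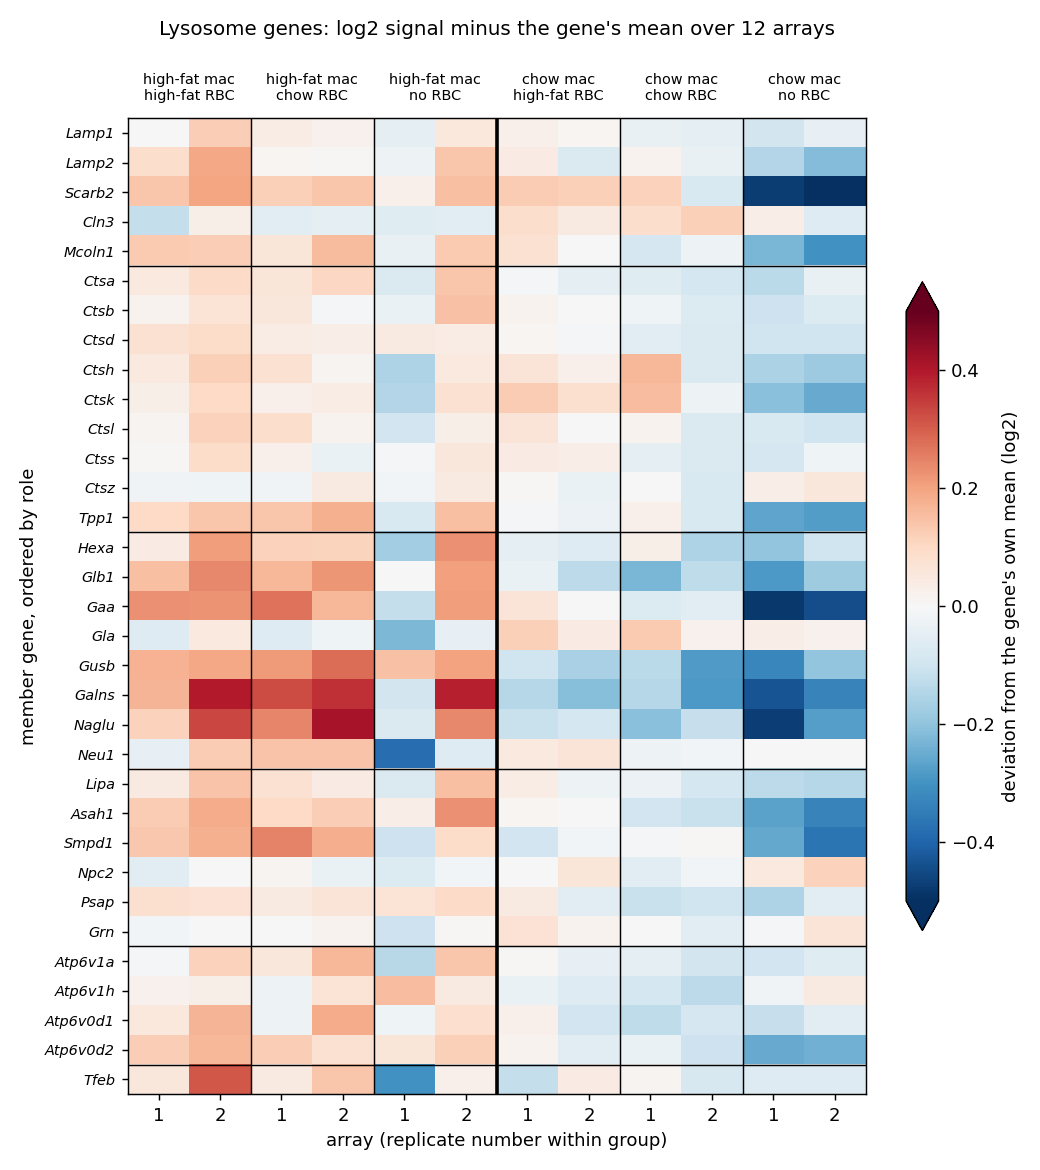
Heat map of the 33 lysosome genes (rows, ordered by role) on the 12 arrays (columns, by group), coloured by the log2 deviation from the gene's own mean over all arrays; the colour scale ends at 0.5 in each direction. Unexposed chow macrophages were lowest for 22 genes, and replicate 1 of the unexposed high-fat macrophages is bluer (lower) than replicate 2 in 31 of 33 rows.

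What the macrophage donor's diet changed without any RBC was asked by comparing unexposed high-fat with unexposed chow macrophages. Scarb2, 5 enzymes of sugar-chain breakdown, acid ceramidase, a channel and a pump subunit were higher in high-fat macrophages, by log2 0.31 to 0.62. Of the 33 genes 9 rose and 0 fell, while 8.12% of all genes tested rose (13.9% were called in either direction). The median difference of the 33 was 0.14, and that of all genes was -0.01. In 21 of the 33 genes both high-fat arrays lay above both chow arrays, which held for 24.4% of all genes. In 3 of the 33 both lay below, which also held for 24.4% of all genes.

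Of the 5 membrane proteins, 2 rose. Scarb2, also called LIMP-2, the receptor that carries glucocerebrosidase to the lysosome, had signals of 9.43 and 9.56 in unexposed high-fat macrophages, against 8.93 and 8.83 in unexposed chow macrophages. Both high-fat arrays lay well above both chow arrays, and the difference was 0.62 ± 0.10 (SE, n = 2 arrays each, limma adjusted p = 0.00069), or 1.53-fold. Mcoln1, the TRPML1 channel through which calcium leaves the lysosome, had 9.08 and 9.25 in unexposed high-fat macrophages, against 8.89 and 8.81 in unexposed chow macrophages, and rose by 0.31 ± 0.10 (limma adjusted p = 0.048). The coat proteins Lamp1 and Lamp2 and Cln3, a membrane protein lost in a childhood lysosomal storage disease, did not pass, at 0.07, 0.24 and -0.04.

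Of the 8 enzymes of sugar-chain breakdown, glycosidases and 1 sulfatase, 5 rose. Gaa, the acid glucosidase that breaks down glycogen, had 8.40 and 8.73 in unexposed high-fat macrophages, against 8.04 and 8.08 in unexposed chow macrophages. The high-fat arrays lay far apart, with both above the chow arrays, and the difference was 0.51 ± 0.11 (limma adjusted p = 0.0059). Gusb, which cleaves glucuronic acid from glycosaminoglycans, had 9.97 and 10.02 in unexposed high-fat macrophages, against 9.49 and 9.62 in unexposed chow macrophages, with a difference of 0.44 ± 0.10 (limma adjusted p = 0.0073). The groups of this gene did not overlap, and the high-fat replicates were closer together than the chow replicates. Galns had 8.41 and 8.89 in unexposed high-fat macrophages, against 8.07 and 8.16 in unexposed chow macrophages, a difference of 0.53 ± 0.14 (limma adjusted p = 0.019). Naglu, which trims heparan sulfate, had 8.46 and 8.77 in unexposed high-fat macrophages, against 8.06 and 8.25 in unexposed chow macrophages, a difference of 0.46 ± 0.13 (limma adjusted p = 0.025). For both genes the high-fat arrays were above the chow arrays, and replicate 1 was the lower of the high-fat pair. Glb1, beta-galactosidase, had 8.32 and 8.52 in unexposed high-fat macrophages, against 8.03 and 8.14 in unexposed chow macrophages, and rose by 0.34 ± 0.10 (limma adjusted p = 0.044). The other 3 did not pass. Hexa, the alpha subunit of hexosaminidase, was at 0.18, the alpha-galactosidase Gla at -0.16 and the sialidase Neu1 at -0.22 ± 0.11, with 7.15 and 7.46 in unexposed high-fat macrophages, against 7.53 and 7.52 in unexposed chow macrophages.

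In the lipid group 1 of 6 genes rose. Asah1, the acid ceramidase that splits ceramide into sphingosine and fatty acid, had 9.87 and 10.06 in unexposed high-fat macrophages, against 9.56 and 9.50 in unexposed chow macrophages, with no overlap and a difference of 0.43 ± 0.10 (limma adjusted p = 0.0074). Smpd1, the acid sphingomyelinase that makes ceramide, was at 0.30 ± 0.10 and just outside the threshold (limma adjusted p = 0.059). Lipa, the acid lipase that frees cholesterol from its esters, was at 0.18, and Psap, the precursor of the saposins that help sphingolipid enzymes, at 0.19. The cholesterol carrier Npc2 was at -0.12 and the progranulin gene Grn at -0.08. None of these 4 passed.

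One pump subunit of 4 rose, and it was the member of a pair of paralogs that macrophages and osteoclasts use in particular. Atp6v0d2 had 11.92 and 11.97 in unexposed high-fat macrophages, against 11.60 and 11.62 in unexposed chow macrophages, a difference of 0.34 ± 0.09 (limma adjusted p = 0.023). Its widely expressed paralog Atp6v0d1 had 9.30 and 9.41 in unexposed high-fat macrophages, against 9.21 and 9.27 in unexposed chow macrophages, at 0.12 ± 0.10 (limma adjusted p = 0.55), and whether the paralogs' differences differ was not tested. The subunits Atp6v1a and Atp6v1h of the outer, ATP-splitting sector were at 0.08 and 0.09.

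None of the 9 cathepsins and other peptidases passed in this comparison, with differences from -0.03 for Ctsz to 0.31 for Tpp1, a peptidase that removes tripeptides (limma adjusted p = 0.055). The aspartic protease Ctsd was at 0.14 with an interval of -0.05 to 0.33, and the cysteine proteases Ctsb, Ctsl and Ctss were at 0.14, 0.05 and 0.08. Tfeb itself had 6.98 and 7.30 in unexposed high-fat macrophages, against 7.21 and 7.22 in unexposed chow macrophages, a difference of -0.08 ± 0.12 (limma adjusted p = 0.78), with the chow arrays between the high-fat arrays.

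The count of 9 depended on single arrays. Without replicate 2 of the unexposed high-fat macrophages 2 genes rose (Scarb2 and Gusb) and 1 fell (Neu1). The number that rose was 3 without replicate 1 of the unexposed chow macrophages, 4 without replicate 2 of the unexposed chow macrophages and 11 without replicate 1 of the unexposed high-fat macrophages, and Scarb2 was the one member called in all 12 fits that each left out 1 array (highest limma adjusted p 0.014). With array weights 5 rose, and 2, Scarb2 and Gaa, when only the compared arrays were fitted. The counts were 13 with an intensity trend, 12 with quantile normalization and 11 without the dimmest 33.3% of genes. Other cell markers moved in the same comparison: of 10 macrophage markers 2 rose (Mertk and Mrc1) and 5 fell, with a summed log2 signal of 13.71 and 13.81 in unexposed high-fat macrophages, against 13.98 on both arrays of unexposed chow macrophages. That sum rests mostly on Lyz2 and Cd68, the brightest of the list. Single macrophage markers differed more. Aif1 had 5.34 and 5.18 in unexposed high-fat macrophages, against 8.38 and 8.10 in unexposed chow macrophages. In the same order Cd14 had 8.87 and 8.35, against 10.47 and 10.39, and Fcgr1 6.53 and 6.40, against 8.29 and 8.26. Of 10 mesothelial and fibroblast markers 3 rose and 0 fell, with summed log2 signals of 9.96 and 10.05 in unexposed high-fat macrophages, against 9.70 and 9.67 in unexposed chow macrophages. B cell markers had 1 rise and 6 falls among 9 (8.77 and 8.81 in unexposed high-fat macrophages, against 8.92 and 9.045 in unexposed chow macrophages), and neutrophil markers 0 rises and 5 falls among 15 (10.84 and 10.65 in unexposed high-fat macrophages, against 11.05 and 10.94 in unexposed chow macrophages). Platelet markers had 0 rises and 3 falls among 8 (10.02 and 10 in unexposed high-fat macrophages, against 11.12 and 11.08 in unexposed chow macrophages). Markers of resident peritoneal macrophages had 1 rise and 3 falls among 4 (7.69 and 7.83 in unexposed high-fat macrophages, against 8.755 and 8.47 in unexposed chow macrophages). Eosinophil markers had 1 rise and 1 fall among 5 (7.95 and 7.87 in unexposed high-fat macrophages, against 7.38 and 7.32 in unexposed chow macrophages). The part of these markers in the result was not tested, and in such mixed samples more cells of a type and more RNA per cell cannot be told apart.

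The same diet comparison among macrophages that had been given RBC rests on other arrays, 4 of high-fat and 4 of chow macrophages. Here Galns, Naglu, Gusb and Glb1 rose by log2 0.32 to 0.51. These were 4 of the 33 genes, with 0 falling, while 2.2% of all genes tested rose (4.85% were called in either direction). All 4 are enzymes that degrade sugar chains, from the group of 8, and none of the other 25 genes passed. The median of the 33 was 0.10, against 0.01 for all genes.

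The signals with RBC are given in the order high-fat RBC, then chow RBC, replicates 1 and 2 of each. Galns had 8.67, 8.90, 8.82 and 8.87 in high-fat macrophages, against 8.36, 8.29, 8.36 and 8.21 in chow macrophages, a difference of 0.51 ± 0.10 (SE, n = 4 arrays each, limma adjusted p = 0.0068). Gusb had 9.99, 10.01, 10.03 and 10.10 in high-fat macrophages, against 9.72, 9.66, 9.68 and 9.54 in chow macrophages, a difference of 0.39 ± 0.07 (limma adjusted p = 0.004). In both genes the high-fat arrays lay above every chow array whichever RBC were given. Naglu had 8.64, 8.86, 8.77 and 8.94 in high-fat macrophages, against 8.42, 8.44, 8.32 and 8.41 in chow macrophages, a difference of 0.41 ± 0.09 (limma adjusted p = 0.015). Glb1 had 8.46, 8.56, 8.48 and 8.54 in high-fat macrophages, against 8.28, 8.18, 8.09 and 8.19 in chow macrophages, a difference of 0.32 ± 0.07 (limma adjusted p = 0.018). The promoter windows of Naglu and Glb1 hold CACGTG and that of Gusb does not, as shown above.

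**Figure D2:**
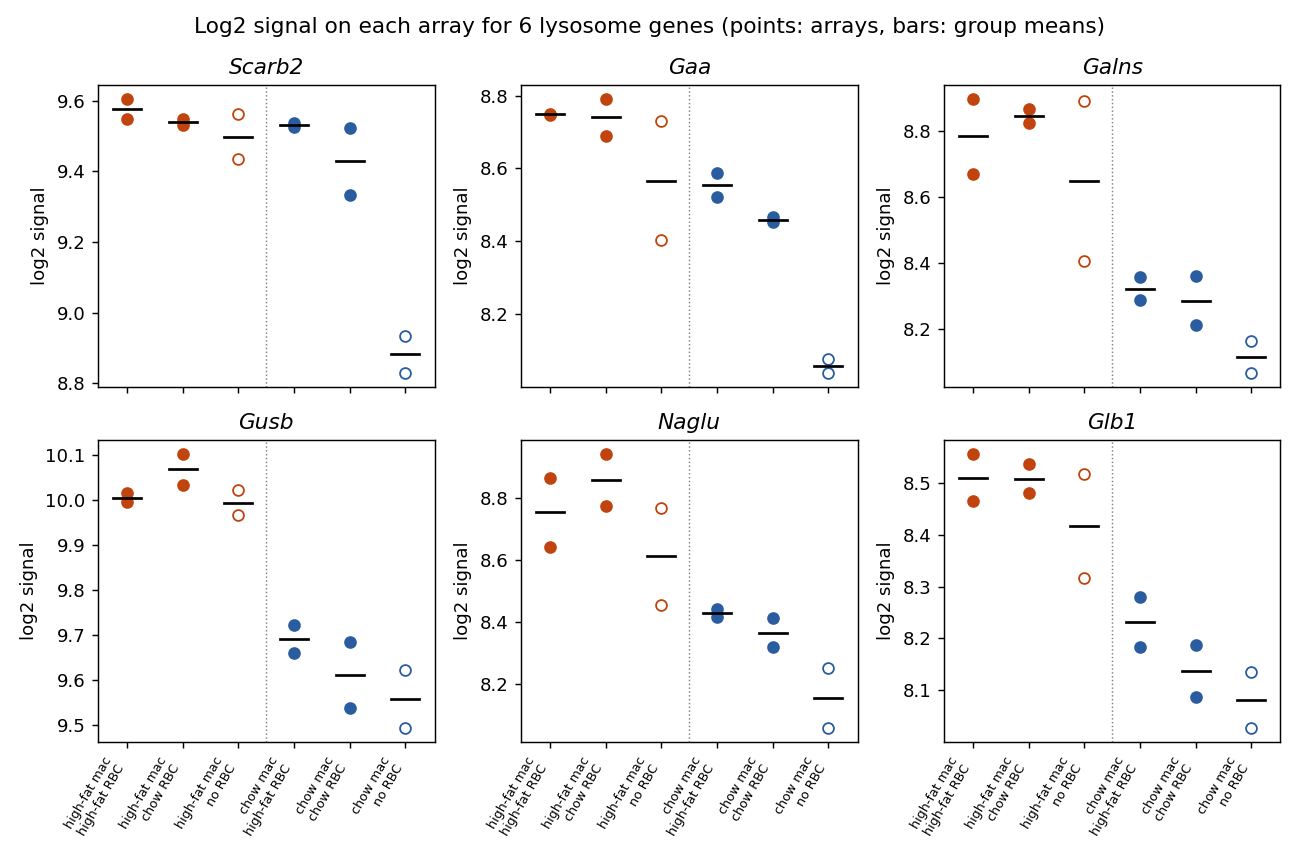
Log2 signal on each of the 12 arrays (points) for Scarb2, Gaa, Galns, Gusb, Naglu and Glb1, by group, with the group mean as a bar. Galns, Gusb, Naglu and Glb1 are higher on every high-fat array with RBC than on every chow array with RBC, while Scarb2 lies at 9.33 to 9.61 on all arrays but those of unexposed chow macrophages, at 8.93 and 8.83.

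The other 5 genes called without RBC did not pass with it, and whether the differences themselves differed is the interaction tested below. Scarb2 had 9.55, 9.61, 9.53 and 9.55 in high-fat macrophages with RBC, against 9.54, 9.53, 9.52 and 9.33 in chow macrophages with RBC, a difference of 0.08 ± 0.07 (limma adjusted p = 0.68). The ranges overlapped. Gaa was at 0.24 ± 0.08 (limma adjusted p = 0.11), Asah1 at 0.18 ± 0.07 (limma adjusted p = 0.17), Mcoln1 at 0.13 and Atp6v0d2 at 0.17. Tfeb was at 0.17 ± 0.09, with 7.33, 7.59, 7.32 and 7.42 in high-fat macrophages with RBC, against 7.16, 7.32, 7.29 and 7.20 in chow macrophages with RBC, and did not pass (limma adjusted p = 0.36).

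The order of the arrays was read as well. In 16 of the 33 genes all 4 high-fat arrays with RBC lay above all 4 chow arrays with RBC, which held for 6.52% of all genes, and in 1 gene, Cln3, they all lay below, which held for 6.77%. The 16 were Ctsa, Ctsd, Tpp1, Hexa, Glb1, Gaa, Gusb, Galns, Naglu, Lipa, Asah1, Smpd1, Psap, Atp6v1h, Atp6v0d2 and Tfeb, of which 12 did not pass the test. Some were apart by very little. The lowest high-fat and the highest chow array were at 7.3229 and 7.3219 for Tfeb, 12.2678 and 12.267 for Psap, and 11.5058 and 11.4996 for Lipa. Cln3 had 8.92, 9.07, 8.98 and 8.99 in high-fat macrophages with RBC, against 9.13, 9.08, 9.13 and 9.15 in chow macrophages with RBC. Gusb and Galns were called in each of the 12 fits that left out 1 array, and the count of 4 was 2 without replicate 2 of high-fat macrophages with either RBC, without replicate 2 of chow macrophages with high-fat RBC, or without replicate 1 of chow macrophages with chow RBC. Macrophage markers had 0 rises and 4 falls among 10 here, with summed log2 signals of 13.85 to 13.89 in high-fat macrophages with RBC, against 13.91 to 14.01 in chow macrophages with RBC, and mesothelial and fibroblast markers had 0 rises and 2 falls among 10. Platelet markers had 0 rises and 1 fall among 8 (10.53 to 11.04 in high-fat macrophages with RBC, against 11.16 to 11.55 in chow macrophages with RBC), and resident peritoneal macrophage markers 0 rises and 2 falls among 4 (7.43 to 7.61 in high-fat macrophages with RBC, against 7.78 to 8.34 in chow macrophages with RBC). Eosinophil markers had 1 rise and 1 fall among 5 (7.76 to 7.85 in high-fat macrophages with RBC, against 7.45 to 7.73 in chow macrophages with RBC). Their part in the result was not tested.

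**Figure D3:**
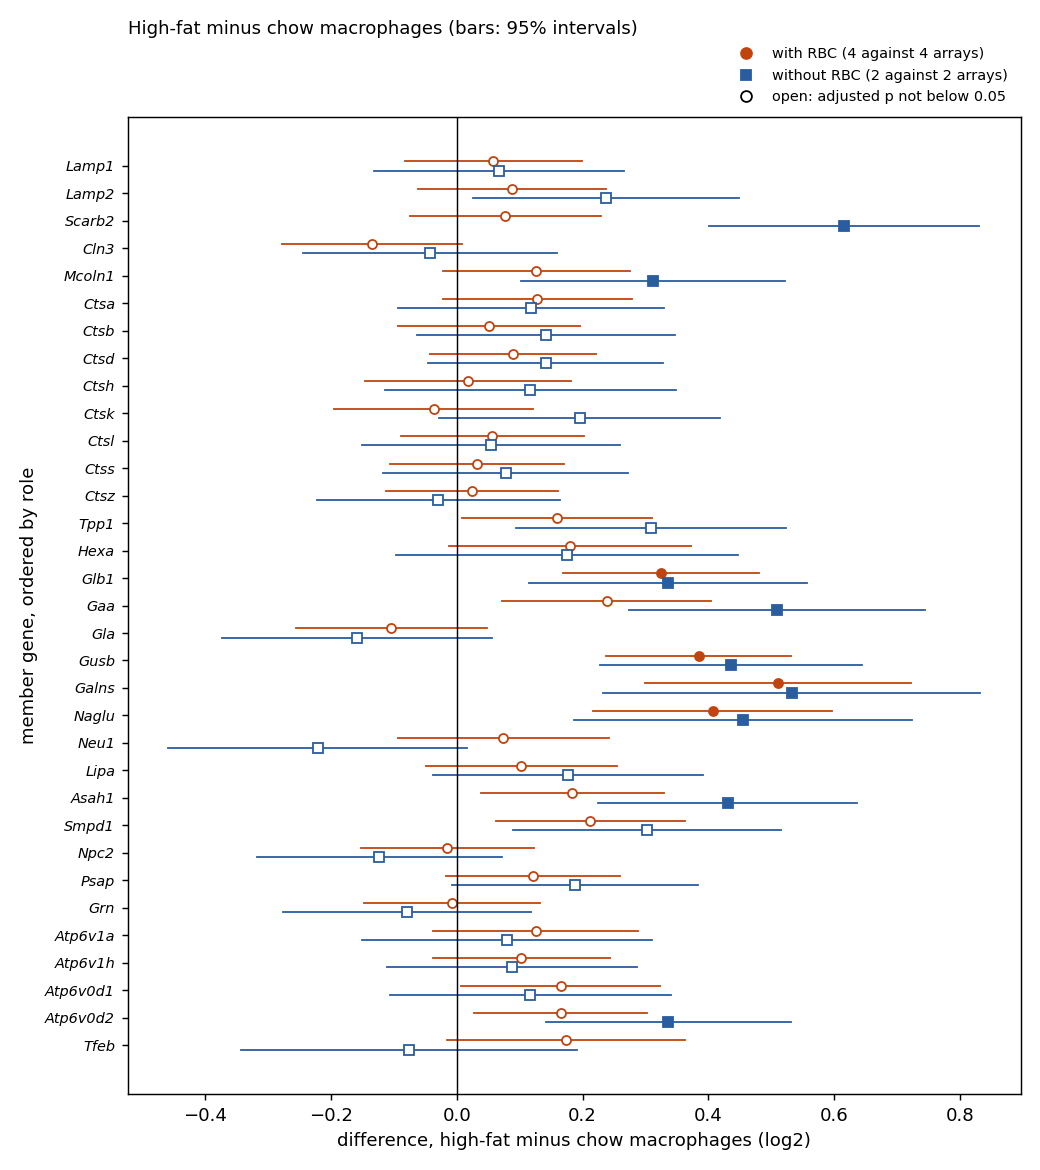
Difference in log2 signal, high-fat minus chow macrophages, for each of the 33 genes (rows by role), with RBC (4 arrays each) and without RBC (2 arrays each). Bars are 95% confidence intervals and filled symbols have a limma adjusted p below 0.05: 4 genes with RBC and 9 without, all above 0.

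What the RBC did to the lysosome genes was asked within each macrophage diet. In chow macrophages Scarb2, Gaa, Ctsk and Smpd1 were higher after RBC by log2 0.28 to 0.60. These 4 of 33 genes, with 0 falling, stand beside 8.22% of all genes that rose in this comparison (4.51% fell and 12.7% were called in either direction), so the share was near that of all genes. The comparison uses the same unexposed chow arrays as the diet comparison without RBC, and the low chow values therefore enter both.

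Scarb2 had 9.54 and 9.53 with high-fat RBC and 9.52 and 9.33 with chow RBC in chow macrophages, against 8.93 and 8.83 without RBC, a rise of 0.60 ± 0.09 (SE, n = 4 and 2 arrays, limma adjusted p = 4e-04). Gaa had 8.59, 8.52, 8.45 and 8.47 in chow macrophages with RBC, against 8.04 and 8.08 without, a rise of 0.45 ± 0.10 (limma adjusted p = 0.0065). No exposed array overlapped an unexposed one for either gene. Ctsk, a collagen-cleaving cysteine protease best known from osteoclasts, had 11.17, 11.12, 11.19 and 11.02 with RBC, against 10.83 and 10.79 without, a rise of 0.31 ± 0.09 (limma adjusted p = 0.035). Smpd1 had 7.53, 7.61, 7.62 and 7.64 with RBC, against 7.37 and 7.26 without, a rise of 0.28 ± 0.09 (limma adjusted p = 0.045). Ctsk and Smpd1 were thus the smallest of the 4, and both also had every exposed array above both unexposed ones. That order held for 17 of the lysosome genes and for 20.2% of all genes, so it was not limited to the 4 called. The reverse order held for 2 of the lysosome genes and for 20.6% of all genes. Just outside the threshold were Mcoln1 at 0.26, Asah1 at 0.25 and Tpp1 at 0.25 (limma adjusted p = 0.063, 0.065 and 0.075). The 4 genes that differed by diet with RBC were not called here: Galns was at 0.19, Gusb at 0.09, Naglu at 0.24 and Glb1 at 0.10.

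In high-fat macrophages 0 of 33 genes passed after RBC, where 0.878% of all genes tested rose and 1.08% were called in either direction (limma, with 3 of the 33 at an unadjusted p below 0.05 and 1 called under 1 of the alternatives). Neu1, the sialidase, had the largest difference at 0.31 ± 0.10 (limma adjusted p = 0.20), with 7.48, 7.65, 7.67 and 7.67 with RBC, against 7.15 and 7.46 without. Tfeb was at 0.28 ± 0.11 (limma adjusted p = 0.35) and Smpd1 at 0.19 ± 0.09 (limma adjusted p = 0.44). In each of these 3 genes the 4 exposed arrays lay above both unexposed arrays, and the replicates of the unexposed group lay far apart (6.98 and 7.30 for Tfeb). That order held for 3 of the 33 genes and for 8.87% of all genes, so the shares were close. The reverse order held for 0 of the 33 and for 8% of all genes. Scarb2 was at 0.06 ± 0.09, with 9.55, 9.61, 9.53 and 9.55 with RBC, against 9.43 and 9.56 without, and Gaa at 0.18 ± 0.10. Without replicate 2 of the unexposed high-fat macrophages Neu1 was called.

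**Figure D4:**
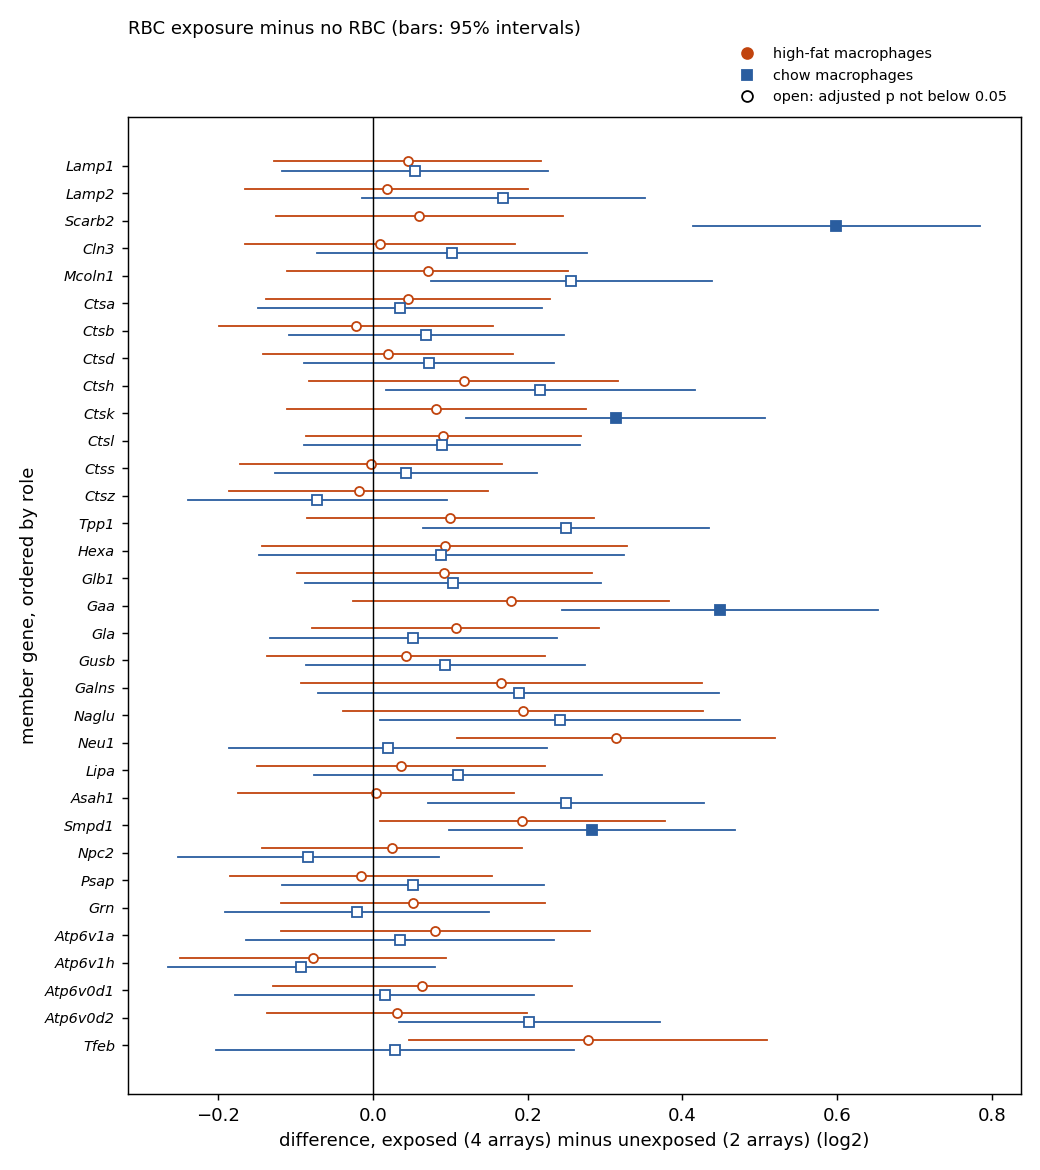
Difference in log2 signal, exposed to RBC (4 arrays) minus unexposed (2 arrays), for each of the 33 genes (rows by role) in high-fat and in chow macrophages, with 95% confidence intervals. Filled symbols have a limma adjusted p below 0.05 and are the 4 genes Scarb2, Gaa, Ctsk and Smpd1 in chow macrophages.

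The difference between these responses, high-fat minus chow macrophages, was tested as an interaction. Of the 33 genes 1 passed, Scarb2, at -0.54 ± 0.12 (limma adjusted p = 0.019) with a 95% interval of -0.80 to -0.28. Among all genes tested 3.1% had such a negative call, 2.57% a positive one and 5.67% either. Without replicate 2 of the unexposed high-fat or of the unexposed chow macrophages the Scarb2 call was lost (limma adjusted p = 0.059 and 0.11). Gaa at -0.27 ± 0.13, Asah1 at -0.25 ± 0.12, Ctsk at -0.23 ± 0.13, Tfeb at 0.25 ± 0.15 and Neu1 at 0.29 ± 0.14 did not pass, so for these genes the responses of the macrophage diets were not shown to differ. Averaged over both diets, RBC raised 3 of 33 genes, Scarb2 by 0.33 ± 0.06, Gaa by 0.31 ± 0.07 and Smpd1 by 0.24 ± 0.06 (limma adjusted p = 0.0047, 0.012 and 0.029), where 5.23% of all genes tested rose and 7.42% were called in either direction. The Scarb2 average covers unlike responses, as the interaction shows.

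The count of 4 in chow macrophages was 1, Scarb2, without replicate 1 or without replicate 2 of the unexposed chow macrophages, and 7 when either 1 of the 2 unexposed high-fat arrays was left out. Counts of 7 also came with array weights or without the dimmest 33.3% of genes, and a count of 8 with an intensity trend. The averaged count of 3 was 1 without replicate 1 and 9 without replicate 2 of the unexposed high-fat macrophages. Summed log2 signals of neutrophil and platelet markers were higher with RBC. Those of 10 erythroid markers were 9.33 to 9.73 in high-fat macrophages with RBC, against 9.49 and 9.67 without. In chow macrophages they were 9.84 to 9.905, against 9.98 and 10.06 without. That sum rests mostly on Tfrc, the brightest of the list. Alas2 had 5.36 to 7.35 in high-fat macrophages with RBC, against 4.86 and 4.87 without. It had 5.39 to 6.12 in chow macrophages with RBC, against 5.05 and 4.90 without. Summed signals of B cell markers were lower in chow macrophages, at 8.73 to 8.91 with RBC, against 8.92 and 9.045 without. Macrophage markers summed to 13.91 to 14.01 in chow macrophages with RBC, against 13.98 on both arrays without. In that list Adgre1 was lower with RBC (9.39 to 9.53, against 10.08 and 10.21), and Mertk was higher (8.09 to 8.32, against 7.53 on both arrays). S100a9, a neutrophil gene, had log2 signals of 9.57 to 10.56 in high-fat macrophages with RBC, against 3.72 and 3.86 without. It had 9.58 to 9.96 in chow macrophages with RBC, against 4.28 and 4.76 without. Of 15 neutrophil markers 7 rose and 0 fell with RBC in high-fat macrophages (summed log2 signals of 11.53 to 12.27, against 10.84 and 10.65 without). In chow macrophages 5 rose and 1 fell (11.72 to 11.97, against 11.05 and 10.94 without). Of 10 mesothelial and fibroblast markers 4 rose and 0 fell with RBC in chow macrophages (10.07 to 10.17, against 9.70 and 9.67 without), and 0 rose and 1 fell in high-fat macrophages. Of 8 platelet markers 5 rose and 0 fell with RBC in high-fat macrophages (10.53 to 11.04, against 10.02 and 10 without), and 4 rose and 0 fell in chow macrophages (11.16 to 11.55, against 11.12 and 11.08 without). The platelet chemokine Ppbp had 8.54 to 9.82 in high-fat macrophages with RBC, against 4.46 and 4.10 without. Of 4 resident peritoneal macrophage markers 0 rose and 3 fell with RBC in chow macrophages (7.78 to 8.34, against 8.755 and 8.47 without), and 0 were called in high-fat macrophages (7.43 to 7.61, against 7.69 and 7.83 without). Their part in the result was not tested.

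The series title asks about RBC of high-fat-fed mice. Averaged over the macrophage diets, high-fat minus chow RBC gave 0 of 33 genes, where 0.01% of all genes tested were called (2 genes). The 33 differences ran from -0.06 for Smpd1 to 0.08 for Asah1, no member had an unadjusted p below 0.05 (629 of all genes did), and the 95% intervals of all 33 lay between -0.22 and 0.23. For Scarb2 the difference was 0.07 with an interval of -0.08 to 0.22, for Gaa 0.05 with -0.11 to 0.22, and for Tfeb 0.04 with -0.15 to 0.23. Within high-fat macrophages 0 of 33 passed (0.0251% of all genes), 0 had an unadjusted p below 0.05 and the differences ran from -0.10 for Naglu to 0.13 for Lamp2. Within chow macrophages 0 of 33 passed and 0 had an unadjusted p below 0.05, with differences from -0.06 to 0.11, and 0% of all genes were called. No difference of either kind was detectable at this number of arrays, and the 95% intervals of the 33 genes lay between -0.37 and 0.36 in high-fat macrophages and between -0.27 and 0.34 in chow macrophages.

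The other genes of the lysosome and its control were read from 7 lists with 119 of 128 genes measured. Without RBC, 24 of the 119 rose and 9 fell in high-fat against chow macrophages, where 8.12% of all genes rose and 5.82% fell. With RBC, 11 rose and 3 fell, where 2.2% of all genes rose and 2.65% fell. With RBC against without, 23 rose and 5 fell in chow macrophages, where 8.22% of all genes rose and 4.51% fell. In high-fat macrophages 0 were called (limma, 5 of the 119 at an unadjusted p below 0.05), where 0.878% of all genes rose and 0.201% fell. For the diet of the RBC donors 0 were called (limma, 2 of the 119 at an unadjusted p below 0.05, averaged over the macrophage diets).

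Most of these rises were among other hydrolases and the proteins that sort enzymes to the lysosome. Of 30 other hydrolases, 10 rose and 2 fell in high-fat against chow macrophages without RBC, and 6 rose and 1 fell with RBC. Arsb, a sulfatase of dermatan sulfate, had 8.23 and 8.26 in unexposed high-fat macrophages, against 7.21 and 7.04 in unexposed chow macrophages (1.12 ± 0.10, limma adjusted p = 2.9e-06), and was higher by 0.69 ± 0.07 with RBC. Galc, which removes galactose from galactosylceramide, rose by 0.92 without and 0.60 with RBC, and the mannosidase Man2b1 by 0.82 and 0.50. Without RBC these 3 differences exceeded that of Scarb2, the largest among the 33 genes.

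Of 9 sorting genes 3 rose without RBC and 3 with it. Sort1, sortilin, a receptor that carries prosaposin and acid sphingomyelinase from the Golgi to lysosomes, had 8.84 and 9.16 in unexposed high-fat macrophages, against 7.55 and 7.50 in unexposed chow macrophages, a rise of 1.48 ± 0.11 (limma adjusted p = 5.2e-07). With RBC the difference was 0.93, and all 4 high-fat arrays (9.02, 9.09, 9.05 and 9.12) lay above the chow arrays (8.22, 8.13, 8.13 and 8.06). Gnptab, the enzyme that starts the mannose phosphate tag on lysosomal enzymes, rose by 0.47 and 0.30, and Igf2r, a receptor for that tag, rose by 0.70 with RBC.

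Membrane proteins went both ways. Of 23 other membrane proteins, 6 rose without RBC, among them the cation channel Tpcn1 (0.75), the amino acid sensor Slc38a9 (0.71) and the lipid transporter Abca2 (0.68). Mcoln2, the channel paralog of Mcoln1, was the 1 that fell, with 8.30 and 8.43 in unexposed high-fat macrophages, against 9.39 and 9.46 in unexposed chow macrophages (-1.06 ± 0.09, limma adjusted p = 2.6e-06). RBC lowered it in chow macrophages too, by 1.01 on the log2 scale, to 8.38 to 8.45. Of 17 other pump subunits 1 rose, Atp6v0a1, by 0.79 ± 0.10 without RBC (limma adjusted p = 0.00012), and RBC raised it by 0.40 in chow macrophages.

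Relatives and regulators of Tfeb moved in both directions. In the list of these factors and of the lysosomal nutrient-sensing complex, 3 of 17 rose without RBC (Rragd at 0.80, Lamtor2 at 0.70, and Lamtor4) and 3 fell (Mitf, Tfe3 and Tfec). Mitf, a close relative of Tfeb, had 8.26 and 8.29 in unexposed high-fat macrophages, against 8.67 and 8.74 in unexposed chow macrophages (-0.43 ± 0.09, limma adjusted p = 0.005), and -0.41 with RBC. Averaging the probe sets of Mitf in place of the brightest ended both calls (limma adjusted p = 0.875 and 0.08). The autophagy receptor Sqstm1 fell by 1.13 on the log2 scale without RBC and by 0.44 with RBC, with 10.22 and 10.33 in unexposed high-fat macrophages, against 11.35 and 11.45 in unexposed chow macrophages. Cst7, cystatin F, an inhibitor of cathepsins, fell by 1.00 without RBC.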

How the data were processed

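Transcripts were measured on 12 single-channel arrays. For each probe set and array the authors deposited a log2 signal. Per the labels' protocols, RNA came from a Qiagen column kit, and 2 Nugen kits, WTA-Ovation FFPE V2 and Encore biotin, prepared the label. The sources used here do not state how signals were summarized and normalized, and the log base was judged from their span (1.46 to 13.33). No raw intensities were analysed, so depth is expressed only by the number of arrays.

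Of 35556 probe sets with values, 21789 had 1 gene symbol and were kept, which gave 19938 genes by the brightest probe set, with no filter on low values. The 1621 with several symbols and the 12146 that the probe table does not list were left out. limma 3.58.1 in R 4.3.3 fitted 1 mean per group over all 12 arrays (6 residual and 7.69 prior degrees of freedom), and 9 comparisons between group means were tested with eBayes and Benjamini-Hochberg adjustment over all genes. Errors are standard errors of the fit. The comparisons of RBC exposure in chow macrophages, of macrophage diet without RBC, their average and the interaction share the unexposed chow arrays, and the exposure and diet comparisons also share the unexposed high-fat or the exposed arrays, so they are not independent.

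All 33 members could be named, with per-array values for those called in any comparison, the paralogs Atp6v0d1 and Atp6v0d2, and Tfeb. Neu1, Cln3 and Tpp1 were singled out after their values were seen, as were Tfe3 and Tfec. The same holds for the macrophage markers Adgre1, Aif1, Cd14, Fcgr1 and Mertk and for the erythroid marker Alas2. Of each other pathway list up to 4 called genes per comparison with the smallest p could be named, and of each marker list its summed signal. Members and lists (18 lists, 215 of 231 genes measured) were chosen with earlier results of these data known. Their counts are set beside those of all genes and no set was tested. A simulation with 200 changed genes served to test the procedure. Of changes of log2 0.5 it recovered 11% for the interaction and 41% for macrophage diet without RBC. The share was 37% and 39% for RBC diet in high-fat and in chow macrophages, and 55% to 83% for the other comparisons. Of changes of log2 1 it recovered 79% to 99%. Differences of the size seen in most of the 33 genes could therefore be missed. Alternatives were each array left out in turn, the compared arrays only, array weights, quantile normalization, omission of the dimmest 33.3% of genes, robust eBayes with an intensity trend, averaged probe sets per gene and the animal replicate number as a block.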

Additional observations from a re-analysis of the deposited data

Results flagged for a closer look

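Scarb2 responded unlike in the macrophages of the 2 diets. The response to RBC of high-fat macrophages minus that of chow macrophages was -0.539 on the log2 scale (95% interval -0.80 to -0.28, limma adjusted p = 0.019), with 0.06 ± 0.09 in high-fat and 0.60 ± 0.09 in chow macrophages. All 4 exposed and both unexposed high-fat arrays lay between 9.43 and 9.61, and the unexposed chow arrays at 8.93 and 8.83 lay below the 4 exposed chow arrays at 9.33 to 9.54. The call was lost without replicate 2 of the unexposed high-fat macrophages and without replicate 2 of the unexposed chow macrophages (limma adjusted p = 0.059 and 0.11).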

How the results depend on the processing

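With each array left out in turn, the count of 33 ran from 1 to 9 for RBC exposure averaged, 0 to 1 in high-fat macrophages, 1 to 7 in chow macrophages and 0 to 1 for the interaction. It ran from 3 (in either direction, with Neu1 lower in 1 of these fits) to 11 for macrophage diet without RBC, from 2 to 5 with RBC, and was 0 throughout for the 3 comparisons of RBC diet. The counts over all genes ran from 681 to 2812, 120 to 652, 956 to 3093, 558 to 1115, 1600 to 2746 and 564 to 1199 in the same order, and from 1 to 4, 0 to 6 and 0 to 2 for RBC diet averaged, in high-fat and in chow macrophages. Genes whose 4 high-fat arrays with RBC all lay above the 4 chow arrays numbered 16 to 20 with 1 exposed array left out and 18 with quantile normalization, alternatives chosen after seeing the data. In chow macrophages the exposure count was 7 with the dimmest genes removed, 8 with the intensity trend and 7 with array weights, and the averaged count was 6 with the intensity trend. For macrophage diet without RBC it was 13 with the intensity trend, 12 with quantile normalization, 11 with the dimmest genes removed, 5 with array weights and 2, Scarb2 and Gaa, in the compared arrays only, where 1777 genes were called. Smpd1 was no longer called for exposure in chow macrophages and on average with quantile normalization, nor in chow macrophages with either replicate block (limma adjusted p = 0.056 and 0.0546), and Mcoln1 for macrophage diet without RBC was no longer called with the replicate block (0.0594). Over all alternatives, each array left out among them, the Mcoln1 and Glb1 calls for macrophage diet without RBC were kept in 5 and 8 of 19. For exposure in chow macrophages Smpd1 was kept in 7 of 20 and Ctsk in 13 of 20, and Smpd1 on average in 11 of 19. RBC exposure in high-fat macrophages called 101 genes with array weights and 92 in the compared arrays only. The RBC diet comparison called 11 genes with the intensity trend and 5 with array weights on average, and 13, 9 and 0 with the intensity trend, array weights and the compared arrays only in high-fat macrophages. With 1 array left out, the exposure difference of Scarb2 in high-fat macrophages ran from -0.003659 (without replicate 1 of the unexposed high-fat macrophages) to 0.1233 (without replicate 2), and the diet difference of Tfeb without RBC from -0.2395 (without replicate 2) to 0.08818 (without replicate 1), so both changed sign. The cause of these shifts was not tested. Correlations of the replicate differences ran from -0.0774 to 0.344 between groups of 1 macrophage diet and from -0.226 to 0.0673 across diets. The 0.344 was between high-fat macrophages with high-fat RBC and with no RBC. In these groups replicate 1 lay below replicate 2 in 29 and 31 of the 33 genes. A shared replicate effect there was not tested. The main fit did not take the numbers as pairs, and the replicate blocks were alternatives. With the replicate block 1 gene was called for RBC diet in chow macrophages, and with the replicate block within macrophage diet 1, 3 and 2 genes for RBC diet on average, in high-fat and in chow macrophages. The block within macrophage diet could not be fitted for comparisons between macrophage diets. Signal over background and the number of arrays limit what could be seen.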

Other observations

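Outside the 33 genes, several lysosome genes also responded to RBC in a way that differed between the macrophage diets. Of the 119 other pathway genes, 3 had a more positive and 8 a more negative response in high-fat than in chow macrophages (limma), where 2.57% and 3.1% of all genes did. Among the 8 were the pump subunit Atp6v0a1 at -0.68, the iduronate sulfatase Ids at -0.59, the aspartylglucosaminidase Aga at -0.58 and the fucosidase Fuca1 at -0.56. The channel Tpcn1 was at -0.65, Sort1 at -0.54, the nutrient-sensing GTPase Rragd at -0.69 and Lamtor2, a subunit of its anchor, at -0.62. The 3 in the other direction were Mcoln2 at 1.15, Cst7 at 0.90 and Sqstm1 at 0.69.

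For several of these genes the unexposed chow arrays stood apart from all others. Rragd had 7.35, 7.30, 7.17 and 7.12 in high-fat macrophages with RBC, against 7.27 and 7.37 without. It had 7.14, 7.11, 7.15 and 7.09 in chow macrophages with RBC, against 6.45 and 6.59 without. Cst7 went the other way, with 4.87 to 5.36 on the 6 arrays of high-fat macrophages and 5.02 to 5.30 in chow macrophages with RBC, against 6.20 and 6.36 in chow macrophages without.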
